A study of Mus musculus with 9 samples.

Results

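The D and E cyclins with the kinases of the G1 phase were examined in ventricular RNA of neonatal mice. The 10 genes are Ccnd1, Ccnd2, Ccnd3, Ccne1, Ccne2, Cdk2, Cdk4, Cdk6, E2f3 and Cdc25a, given by name, out of 38293 genes in the count table. The rule sets no threshold on measured values, but the genes were picked with earlier results of these data known, and the study had named 4 of them from these samples. All 10 passed the filter on low counts, which left 15318 genes for the test. The libraries were made from ventricles at postnatal day 7 (P7). There were 5 control libraries of genotype Arid1a f/f, which carry loxP-flanked Arid1a without Cre, and 4 libraries of genotype aMHC-Cre;Arid1a f/f (cKO), in which the cardiac myosin heavy chain promoter drives Cre recombinase. Both groups share the floxed alleles, and Cre is present in cKO only, so its own effect cannot be told apart from loss of Arid1a. The product of Arid1a belongs to SWI/SNF, a complex that remodels chromatin. Cre acts in cardiomyocytes, while the RNA came from the whole ventricle with its fibroblasts, endothelium and other cells, which keep the gene. In such bulk RNA fewer cells of a type and less RNA per cell cannot be told apart.

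D cyclins bind Cdk4 or Cdk6 in response to growth signals, and these kinases phosphorylate the retinoblastoma protein, which releases E2F transcription factors. E2F factors raise E cyclins, which bind Cdk2 and carry the cell into S phase, and the phosphatase Cdc25a removes inhibitory phosphate from Cdk2. In the heart, cardiomyocytes leave the cell cycle in the first days and weeks after birth, and D cyclins, E cyclins and their kinases decline with that exit.

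Levels are CPM, the usual depth-scaled counts, with library totals corrected by TMM scaling for differences in composition. Total counts per library ran from 31011055 to 40073801. Arid1a itself averaged 139.8 ± 8.84 CPM over the 5 controls and 106.4 ± 5.44 CPM over the 4 cKO libraries (mean ± SD), and all cKO values were below all control values. The libraries also fell into 2 sets by the level of Rps3a3, a copy of a ribosomal protein gene: control replicates 1 and 2 with cKO replicates 1 to 3 were low, and control replicates 3 to 5 with cKO replicate 4 were high. The labels give no batch, so changes are also given within these sets, of which the high set holds 1 cKO library and allows no test.

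Of the 10 genes, 4 rose in cKO at an adjusted p under 0.05 and 0 fell, by edgeR's quasi-likelihood test with Benjamini-Hochberg adjustment over all genes tested. They were Ccnd2, Ccne1, Cdk4 and E2f3. Among all 15318 genes 16.3% passed, 8.25% higher and 8.03% lower in cKO. These are the 4 genes that the study had named, so the count is not independent evidence, and 0 of the 6 others passed in edgeR. Of those 6, Ccnd1, Ccnd3 and Cdk2 had an unadjusted p under 0.05, and Ccnd3 passed with DESeq2. Only Ccne1 also changed by more than 1.5-fold, which together with the test held for 6.72% of all genes, 4.01% higher and 2.72% lower in cKO. The median log2 fold change of the 10 genes was 0.30, against 0.01 over all genes, with 8 above 0 and 2 below. The summed level of the 10 genes was 769.9 to 854.6 CPM in controls and 993.1 to 1090 CPM in cKO, and the groups did not overlap. Ccnd2 contributed the largest level to that sum in every library. The groups did not overlap for 5 single genes, 4 with all cKO libraries above and Cdk2 with all below. In all tested genes 8.16% had all cKO libraries above and 8.58% all below.

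**Figure D1:**
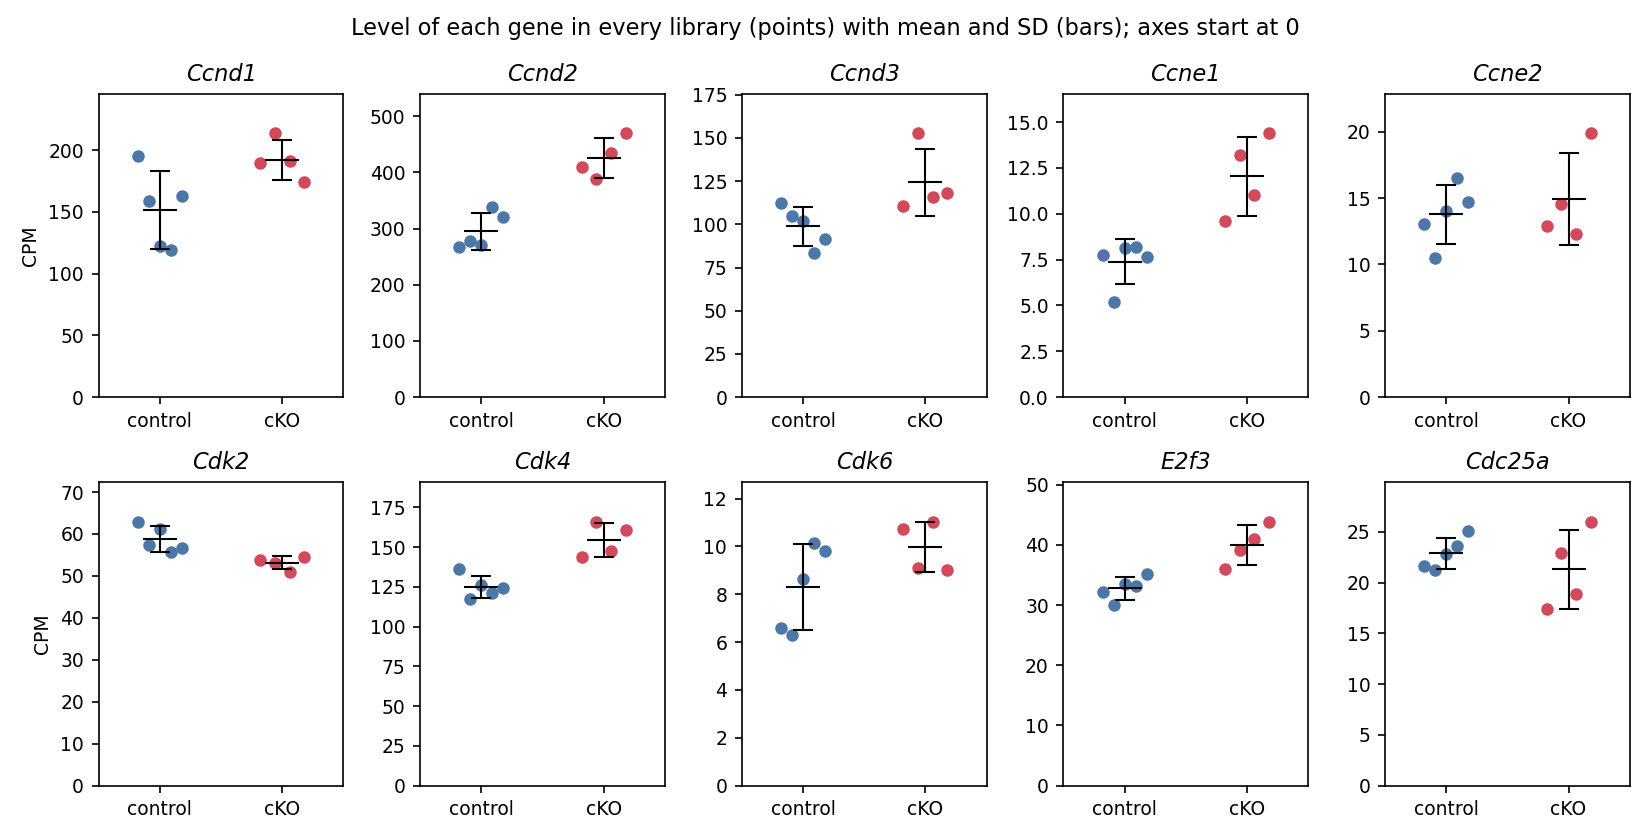
Level of each of the 10 genes in CPM, 1 point per library, for 5 control and 4 cKO libraries, with the group mean as a bar. Every cKO library lay above every control for Ccnd2, Ccne1, Cdk4 and E2f3 and below for Cdk2, while the groups overlapped for the other 5 genes.

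Among the D cyclins, Ccnd2 rose. Ccnd2 (ENSMUSG00000000184, GRCm38 chromosome 6, 127125162 to 127152193, minus strand) encodes cyclin D2, the regulatory partner of Cdk4 and Cdk6. Control replicates 1 to 5 held 267.1, 277.6, 271.3, 339.3 and 319.9 CPM of Ccnd2, and cKO replicates 1 to 4 held 409.1, 388.8, 433.9 and 470.0 CPM. The lowest cKO library lay above the highest control. Its mean ± SD was 295.0 ± 32.5 CPM in the 5 controls against 425.5 ± 35.0 CPM in the 4 cKO libraries. This is a rise of 1.44-fold, or 0.53 on the log2 scale (SE 0.09, 95% interval 0.34 to 0.72, adjusted p = 0.00145 by edgeR). Within the Rps3a3-low and high sets the log2 differences were 0.59 and 0.61. Of the 10 genes it was the one that passed in all 18 alternatives, with log2 fold changes of 0.48 to 0.60. With at least 8876 counts in a library its counting error was 1.06% or less, against a spread of 8.22% between cKO libraries.

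Ccnd1 (ENSMUSG00000070348, chromosome 7, 144929931 to 144939925, minus strand) encodes cyclin D1, which is induced by growth factors. The controls, in the order of replicates 1 to 5, had 195.0, 158.6, 122.2, 119.3 and 163.1 CPM, while cKO replicates 1 to 4 had 189.2, 213.8, 191.5 and 173.9 CPM. The groups overlapped because control replicate 1 exceeded 3 of the 4 cKO libraries, and the coefficient of variation was 20.8% in controls against 8.56% in cKO. On the log2 scale the difference of cKO from control was 0.34 (SE 0.13, 95% interval 0.05 to 0.64), which did not pass (adjusted p = 0.114 by edgeR). With control replicate 1 left out it was 0.45 (adjusted p = 0.0196 by edgeR). It came to 0.17 in the Rps3a3-low and 0.38 in the high set.

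Ccnd3 (ENSMUSG00000034165, chromosome 17, 47505051 to 47599691, plus strand) encodes cyclin D3. It was at 112.4, 104.8, 102.2, 83.6 and 91.4 CPM in the controls and at 110.6, 152.8, 115.6 and 118.1 CPM in cKO. Of the 4 cKO libraries, cKO replicate 1 lay within the control range and cKO replicate 2 stood above the others. Ccnd3 came close to the threshold, with a log2 fold change of 0.33, an SE of 0.11 and a 95% interval of 0.10 to 0.56 (adjusted p = 0.0561 by edgeR). Within the Rps3a3-low and high sets it differed by 0.20 and 0.36. It passed in 3 of the 18 alternatives, with DESeq2 (adjusted p = 0.0329), without control replicate 1 (0.0367) and without cKO replicate 1 (0.0419). Without cKO replicate 2 the log2 fold change of Ccnd3 was 0.21 (adjusted p = 0.157 by edgeR).

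The D cyclins can be compared by length, as CPM per kb of exon. Ccnd1 and Ccnd2 were the leading D cyclins, at 32.2 ± 6.69 and 31.4 ± 3.45 CPM per kb in controls (SD, n = 5), and Ccnd3 followed at 11.3 ± 1.30 CPM per kb. Ccnd1 exceeded Ccnd2 in 4 of the 9 libraries. As a share of the summed level per length of the D cyclins, Ccnd2 was 42.2 ± 6.06% in controls and 45.2 ± 4.18% in cKO, Ccnd1 42.7 ± 5.54% and 40.7 ± 2.87%, and Ccnd3 15.1 ± 1.82% and 14.1 ± 1.75%. All 3 shares overlapped between the groups. The log2 ratio of Ccnd2 to Ccnd1 differed by 0.17 between cKO and control (two-sided exact permutation p = 0.468, adjusted over 6 ratios 0.702), that of Ccnd2 to Ccnd3 by 0.21 (p = 0.357, adjusted 0.702) and that of Ccnd1 to Ccnd3 by 0.04 (p = 0.841, adjusted 0.937). Within the Rps3a3-low and high sets the differences were 0.42 and 0.23 for Ccnd2 to Ccnd1, 0.39 and 0.25 for Ccnd2 to Ccnd3, and -0.03 and 0.02 for Ccnd1 to Ccnd3. With 1 library left out the first ran from 0.04 to 0.30 and the second from 0.12 to 0.35. In these runs the smallest raw p by exact permutation, 0.0179 or 0.0286, came to 0.0536 or 0.0857 after adjustment. Not passing in them therefore decides nothing. No unequal change of the D cyclins passed the test, which does not show that they changed alike.

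Markers of some cell types, though not of endothelium, moved with the groups. The summed level of 6 fibroblast markers was 2797 to 3539 CPM in controls and 3638 to 4324 CPM in cKO, without overlap, and 3 of the 6 rose at an adjusted p under 0.05 in edgeR, namely Col1a1 (0.52), Col1a2 (0.40) and Tcf21 (0.48), while Dcn (-0.05), Pdgfra (0.11) and Lum (0.06) did not pass. The 7 cardiomyocyte markers summed to 42820 to 49710 CPM in controls and 38820 to 42170 CPM in cKO, without overlap. All 7 had a log2 fold change below 0, with a median of -0.23. In edgeR 1 of them, Pln, fell past the threshold (-0.45), and with DESeq2 3 of the 7 passed. Of all tested genes 8.25% rose and 8.03% fell in edgeR. No marker of either list was at 0 in any library. The 5 endothelial markers overlapped, at 1275 to 1385 against 1263 to 1351 CPM, and 0 of 5 passed with edgeR or DESeq2 or had an unadjusted p under 0.05. The part of these cells in the levels of cyclins and kinases was not tested.

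Of the E cyclins, Ccne1 rose and Ccne2 did not pass. Ccne1 (ENSMUSG00000002068, chromosome 7, 38097984 to 38107534, minus strand) encodes cyclin E1, the activator of Cdk2 at the start of S phase. Its level was 7.76, 5.21, 8.14, 8.18 and 7.63 CPM in the controls, replicates 1 to 5, against 9.61, 13.2, 11.01 and 14.4 CPM in the cKO libraries, replicates 1 to 4. All cKO libraries were above all controls, and control replicate 2 stood below the other controls. The mean ± SD was 7.39 ± 1.24 CPM over 5 controls and 12.1 ± 2.15 CPM over 4 cKO libraries. Ccne1 thus rose 1.63-fold, by 0.71 on the log2 scale (SE 0.16, 95% interval 0.37 to 1.05, adjusted p = 0.00863 by edgeR). The log2 difference was 0.81 in the Rps3a3-low set and 0.85 in the high set. In a fit to the 5 Rps3a3-low libraries alone it was 0.80 with an adjusted p of 0.0865. The gene was counted 180 times in the poorest library, where counting error alone is 7.45%.

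Ccne2 (ENSMUSG00000028212, chromosome 4, 11191351 to 11204779, plus strand) encodes cyclin E2, a second activator of Cdk2. Its levels were 13.1, 10.5, 14.0, 16.6 and 14.7 CPM in controls and 12.9, 14.6, 12.3 and 19.9 CPM in cKO. The groups overlapped, and cKO replicate 4 was the highest of all 9 libraries. Ccne2 had a log2 fold change of 0.12 (SE 0.16, 95% interval -0.23 to 0.46) with an adjusted p of 0.666 by edgeR, and -0.05 without cKO replicate 4. Within the Rps3a3-low and high sets it differed by 0.17 and 0.40. The exons of Ccne2 share 609 bases with Ints8 on the opposite strand, a gene with a higher mean count (1230 against 499.4), and the strand setting of the counting is not given in the sources used here, so its level is uncertain.

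The E cyclins were also compared by their ratio within each library, which needs no scaling between libraries. This ratio rests on the same Ccne2 counts, so the uncertainty from Ints8 applies to it as well. Ccne1 made up 43.8, 39.4, 43.3, 39.4 and 40.5% of the summed E cyclin level per length in controls and 49.4, 54.4, 54.0 and 48.7% in cKO. The groups did not overlap, and Ccne1 was the larger of the pair in 2 cKO libraries and in no control. The log2 ratio of Ccne1 to Ccne2 counts went from -0.90 ± 0.13 to -0.30 ± 0.17, a difference of 0.60 or 1.52-fold (two-sided exact permutation p = 0.00794, the smallest that 126 splits allow, adjusted over 6 ratios 0.0238). By library set the difference was 0.64 (low) and 0.45 (high). With labels permuted within these sets the exact p was 0.025, the smallest that 40 splits allow, and 0.075 after adjustment.

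**Figure D2:**
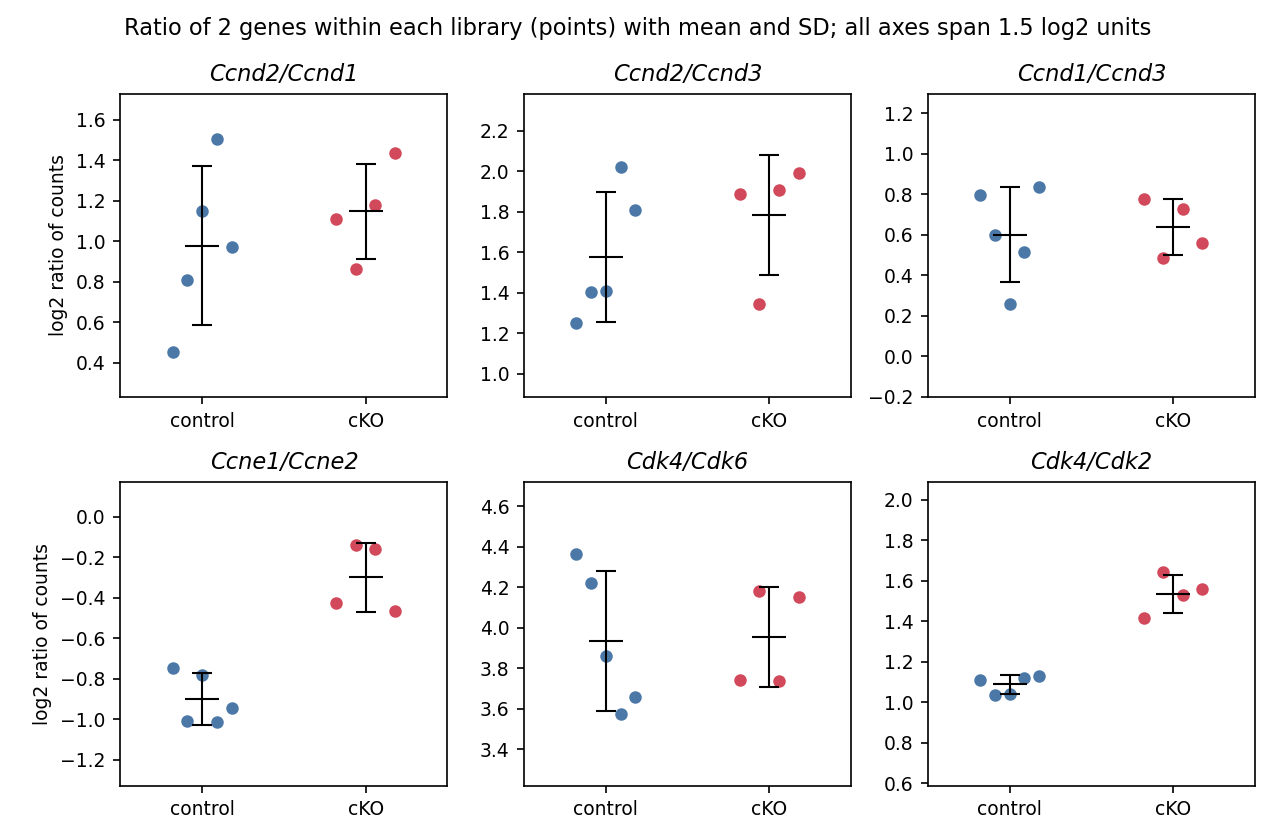
Log2 ratios of counts of 2 genes within a library, 1 point per library (5 control, 4 cKO), with group means as bars. The cKO libraries lay above the controls for Ccne1 to Ccne2 and for Cdk4 to Cdk2, and the groups overlapped for the other 4 ratios. The counts of Ccne2 are uncertain through its overlap with Ints8.

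Of the G1 kinases, Cdk4 rose, while Cdk2 and Cdk6 did not pass. Cdk4 (ENSMUSG00000006728, chromosome 10, 127063534 to 127067920, plus strand) encodes the partner of the D cyclins. Levels of 135.9, 117.6, 125.9, 121.0 and 124.2 CPM were found in control replicates 1 to 5, and of 143.6, 166.0, 147.4 and 160.6 CPM in cKO replicates 1 to 4. The highest control, replicate 1, lay below the lowest cKO library. The 5 controls averaged 124.9 ± 6.93 CPM and the 4 cKO libraries 154.4 ± 10.6 CPM (mean ± SD). Cdk4 rose 1.24-fold, or by 0.31 in log2 units (SE 0.06, 95% interval 0.17 to 0.45, adjusted p = 0.0064 by edgeR), with 0.27 in the Rps3a3-low and 0.38 in the high set. Fitted to the 5 Rps3a3-low libraries alone, the estimate was 0.27 with an adjusted p of 0.216 by edgeR. The exons of Cdk4 share 641 bases with Tspan31 on the opposite strand, for which the log2 fold change was 0.05 with overlapping groups.

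Short sequence words were looked for on both strands in RefSeq promoter windows (GRCm38.p6, 250 bases before to 50 bases from the start site on), which were found for 7 of the 10 genes (not for Ccnd1, Ccnd2 and Ccne2). They were the E-box CACGTG, bound by Myc and related factors, the E2F words TTTCCCGC, TTTGGCGC, TTTCGCGC and TTTGCCGC, the TEAD word GGAATG, the GC box GGGCGG and the CCAAT box CCAAT. Of 32851 mouse promoter windows 7.15% held the E-box, 2.26% an E2F word, 14.7% the TEAD word, 35.7% a GC box and 37.4% a CCAAT box. Capitals mark the first 3 kinds only, and 8 of the 9 windows of these genes held a GC box. The window of Cdk4 is shown because it held 4 E-boxes, which start at positions -172, -118, -98 and -11 from the start site and are in capitals, and 8 of all windows (0.0244%) held at least 4. Single E-boxes occurred in the window of Cdk6 and in the second window of E2f3, and a TEAD word in the second window of Ccnd3. A match describes letters and not a bound site.
Cdk4, chr10:127063285-127063584, plus strand: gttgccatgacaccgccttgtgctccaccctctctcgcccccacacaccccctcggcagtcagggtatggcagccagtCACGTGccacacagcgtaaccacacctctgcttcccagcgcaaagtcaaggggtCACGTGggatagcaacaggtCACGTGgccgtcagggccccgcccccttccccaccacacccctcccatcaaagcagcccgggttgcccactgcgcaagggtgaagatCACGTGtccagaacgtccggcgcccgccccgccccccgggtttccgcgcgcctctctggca

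Cdk2 (ENSMUSG00000025358, chromosome 10, 128697939 to 128705031, minus strand) encodes the kinase of the E cyclins. Controls (replicates 1 to 5) gave 62.95, 57.4, 61.1, 55.6 and 56.7 CPM, and cKO libraries (replicates 1 to 4) gave 53.8, 53.2, 51.0 and 54.5 CPM. Every cKO library was below every control, and the nearest libraries of the groups were control replicate 4 and cKO replicate 4. Cdk2 did not pass, at a log2 fold change of -0.15 (SE 0.06, 95% interval -0.28 to -0.01, adjusted p = 0.135 by edgeR), nor did it in any of the 18 alternatives, DESeq2 among them (adjusted p = 0.0922). Its differences were -0.19 in the Rps3a3-low and -0.08 in the high set.

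Cdk6 (ENSMUSG00000040274, chromosome 5, 3341485 to 3531008, plus strand) encodes a further partner of the D cyclins. Its levels were 6.59, 6.29, 8.64, 10.1 and 9.83 CPM in controls and 10.7, 9.12, 11.04 and 9.03 CPM in cKO. The 2 lowest libraries were control replicates 1 and 2, both of the Rps3a3-low set, and the groups overlapped. With all libraries the log2 fold change was 0.27 and did not pass (SE 0.16, 95% interval -0.07 to 0.61, adjusted p = 0.28 by edgeR). It differed between the library sets, at 0.67 within the low set and -0.07 within the high set, and in a fit to the low set alone it was 0.68 (adjusted p = 0.0446). The difference between the sets was not tested.

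Cdk4 was the more abundant partner of the D cyclins by length. It was at 38.4 ± 2.13 CPM per kb in controls and 47.5 ± 3.27 CPM per kb in cKO, against 0.593 ± 0.13 and 0.713 ± 0.08 CPM per kb for Cdk6. Cdk6 made up 1.52 ± 0.35% of the summed level of Cdk4 and Cdk6 per length in controls and 1.49 ± 0.25% in cKO. The log2 ratio of Cdk4 to Cdk6 differed by 0.02 between the groups (two-sided exact permutation p = 0.937, adjusted 0.937), with -0.41 for the Rps3a3-low libraries and 0.45 for the others. Between Cdk4 and Cdk2 an unequal change passed with all libraries, but not with labels permuted within the library sets. Their log2 ratio went from 1.09 ± 0.05 (SD, n = 5) to 1.54 ± 0.09 (SD, n = 4), a difference of 0.45 or 1.37-fold (two-sided exact permutation p = 0.00794, the smallest allowed, adjusted over 6 ratios 0.0238). The difference was 0.46 within each of the library sets, and the exact p with labels permuted within them was 0.025, adjusted 0.075.

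E2f3 rose and Cdc25a did not pass. E2f3 (ENSMUSG00000016477, chromosome 13, 29906575 to 29986063, minus strand) encodes an activating E2F factor. Its level in control replicates 1 to 5 was 32.1, 30.0, 33.6, 33.1 and 35.2 CPM, and in cKO replicates 1 to 4 it was 36.1, 39.1, 41.0 and 43.9 CPM. The cKO libraries lay above all controls, with cKO replicate 1 close to the highest control. The rise was 1.22-fold, 0.29 in log2 units (SE 0.07, 95% interval 0.12 to 0.45, adjusted p = 0.02 by edgeR), and 0.32 and 0.37 within the Rps3a3-low and high sets. In 3 alternatives E2f3 lost the threshold: at 0.27 when cKO replicate 3 was left out (adjusted p = 0.0596 by edgeR), at 0.24 when cKO replicate 4 was (0.071) and at 0.32 in the Rps3a3-low libraries by themselves (0.135).

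Cdc25a (ENSMUSG00000032477, chromosome 9, 109875579 to 109893895, plus strand) encodes a phosphatase that activates the kinases. The 5 controls were at 21.6, 21.2, 22.8, 23.6 and 25.1 CPM and the 4 cKO libraries at 17.4, 22.9, 18.9 and 26.0 CPM. The cKO libraries spanned the whole control range, with the lowest and the highest of the 9 libraries among them. Cdc25a was at -0.10 on the log2 scale (SE 0.11, 95% interval -0.35 to 0.15, adjusted p = 0.598 by edgeR), with opposite signs in the Rps3a3-low (-0.13) and high (0.13) sets. With 1 library left out it ran from -0.21, without cKO replicate 4, to -0.02, without cKO replicate 1.

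An E2F word occurred in the promoter windows of E2f3, Cdc25a and Cdk2, and of these E2f3 alone passed the test. Their windows are shown so that the words, in capitals, can be compared. In E2f3 the word starts at position -11, in Cdc25a at -67 and in Cdk2 at -140 from the start site, and it reads GCGGGAAA in E2f3 and Cdk2, the reverse complement of TTTCCCGC, and TTTGGCGC in Cdc25a.
E2f3, chr13:29986014-29986313, minus strand: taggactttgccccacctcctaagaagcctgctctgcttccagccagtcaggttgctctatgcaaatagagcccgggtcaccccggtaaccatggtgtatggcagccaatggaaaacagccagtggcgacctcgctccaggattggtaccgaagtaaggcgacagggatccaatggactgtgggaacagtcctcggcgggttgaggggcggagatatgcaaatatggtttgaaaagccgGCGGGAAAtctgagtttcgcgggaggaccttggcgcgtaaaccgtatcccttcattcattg
Cdc25a, chr9:109875329-109875628, plus strand: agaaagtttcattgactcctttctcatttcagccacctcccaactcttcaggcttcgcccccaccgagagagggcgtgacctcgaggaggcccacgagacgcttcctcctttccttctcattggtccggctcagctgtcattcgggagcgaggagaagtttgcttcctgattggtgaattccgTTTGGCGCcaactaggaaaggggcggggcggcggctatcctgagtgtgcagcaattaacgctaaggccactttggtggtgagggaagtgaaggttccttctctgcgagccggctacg
Cdk2, chr10:128705002-128705301, minus strand: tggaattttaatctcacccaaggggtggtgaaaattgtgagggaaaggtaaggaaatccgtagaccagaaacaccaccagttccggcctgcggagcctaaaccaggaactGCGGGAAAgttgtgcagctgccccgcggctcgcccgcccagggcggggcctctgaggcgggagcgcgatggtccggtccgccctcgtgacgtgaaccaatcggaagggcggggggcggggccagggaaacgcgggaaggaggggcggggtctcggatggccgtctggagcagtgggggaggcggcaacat

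In the window of Ccne1 (chr7:38107441-38107740, minus strand), which had a GC content of 76.0%, none of the E2F, E-box or TEAD words and no CCAAT box occurred, while it held 4 GC boxes. It is shown because Ccne1 was the one gene of the 10 that changed by more than 1.5-fold, and the capitals of the other windows have no counterpart in it. That some words are absent from 300 bases says nothing of a factor's binding.
Ccne1, chr7:38107441-38107740, minus strand: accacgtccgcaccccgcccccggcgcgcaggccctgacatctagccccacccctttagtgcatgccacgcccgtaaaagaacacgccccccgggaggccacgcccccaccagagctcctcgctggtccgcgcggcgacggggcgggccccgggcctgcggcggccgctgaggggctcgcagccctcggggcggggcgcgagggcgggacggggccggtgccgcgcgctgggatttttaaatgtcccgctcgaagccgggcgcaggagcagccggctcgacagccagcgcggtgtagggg

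By level per length the 10 genes fell in the order Cdk4, Ccnd1, Ccnd2, Ccnd3, Cdk2, E2f3, Ccne2, Cdc25a, Ccne1 and Cdk6 in controls, from 38.4 to 0.593 CPM per kb of exon. Neighbours whose control ranges overlapped were Cdk4 and Ccnd1, Ccnd1 and Ccnd2, Ccnd3 and Cdk2, Ccne2 and Cdc25a, and Cdc25a and Ccne1. In cKO Ccne1, at 4.53 ± 0.81 CPM per kb (SD, n = 4) against 2.77 ± 0.47 in controls (SD, n = 5), stood above Cdc25a at 2.65 ± 0.49, and over all 9 libraries Cdc25a was above Ccne1 in 2. E2f3 went from 6.04 ± 0.35 to 7.37 ± 0.61 CPM per kb and Cdk2 from 9.45 ± 0.50 to 8.54 ± 0.24. Exon lengths sum all annotated exons, so a gene with long or rarely used exons is understated.

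**Figure D3:**
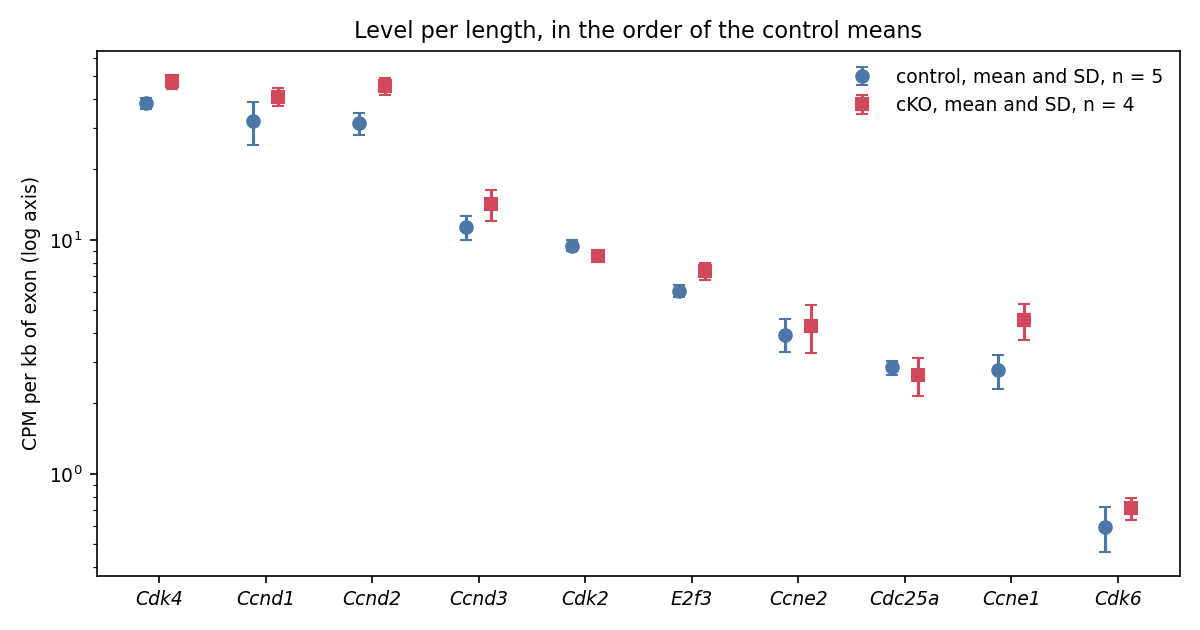
Level in CPM per kb of annotated exon (log axis), mean and SD of 5 control and 4 cKO libraries, in the order of the control means. The genes ran from 38.4 CPM per kb for Cdk4 to 0.593 CPM per kb for Cdk6 in controls.

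**Figure D4:**
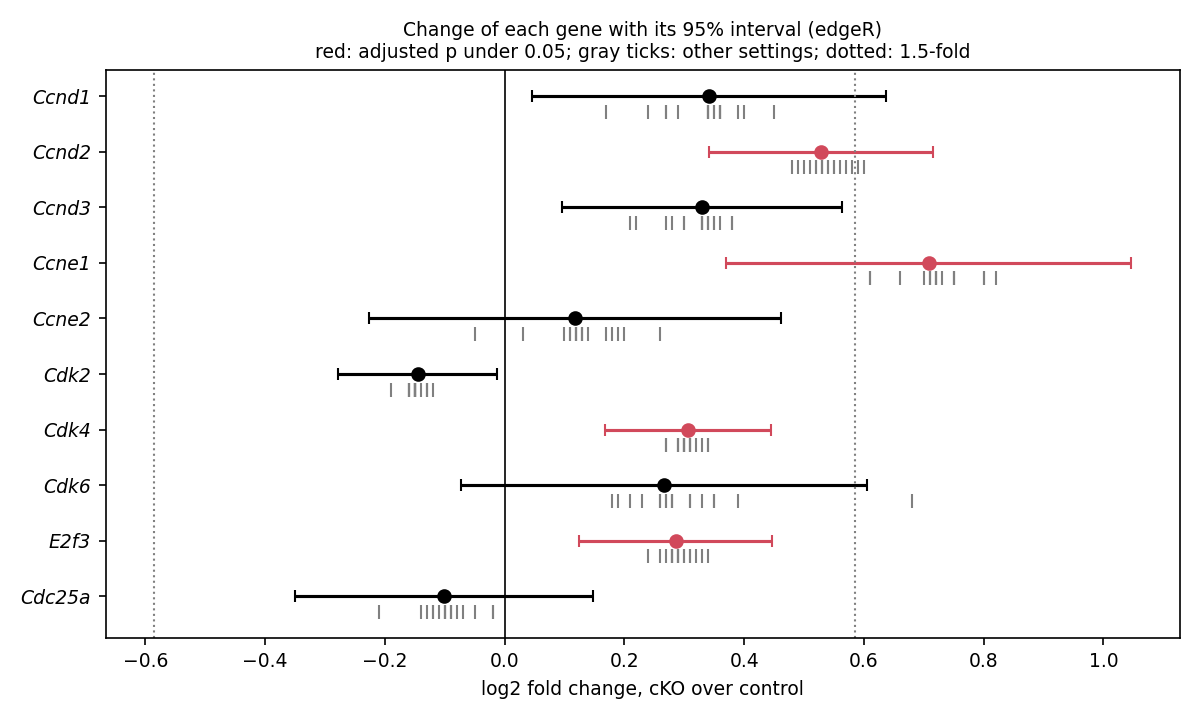
Log2 fold change of cKO over control for the 10 genes, with 95% intervals from edgeR's quasi-likelihood test on 5 control and 4 cKO libraries. The estimates ran from -0.15 for Cdk2 to 0.71 for Ccne1, and those of Ccnd2, Ccne1, Cdk4 and E2f3 passed an adjusted p of 0.05.

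Within cKO the same library did not lead for every gene. Replicate 4 held the highest cKO level for 6 of the 10 genes and replicate 1 the lowest for 5. Among controls replicate 2 was lowest for 6 genes, and replicates 1 and 4 were each highest for 4. The genes most like Ccnd2 over the 9 libraries were Ccdc68, Setd7 and Cltc, with Pearson correlations of log2 CPM of 0.985, 0.980 and 0.971 among 11064 genes, and those most like Cdk4 were Mcm7 (0.994), Poc1a (0.988) and St3gal2 (0.982). After subtraction of the group means the nearest were Naa15 (0.977), Ero1l (0.977) and Opa1 (0.974) for Ccnd2 and Mcm7 (0.979), Tcf19 (0.978) and Mical1 (0.977) for Cdk4. These are descriptions over 9 points that share libraries and, before subtraction, the difference between the groups. Mcm7, a subunit of the replication helicase, was nearest to Cdk4 by both measures.

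Other genes of the pathway were taken from 9 lists. Of 25 S phase genes known to be controlled by E2F, 12 rose and 0 fell by edgeR, and the log2 fold changes, all 25 of them above 0, had a median of 0.43. Among all tested genes 8.25% rose, 8.03% fell and 51.5% were above 0. Ung, a uracil glycosylase of DNA repair, rose from 21.9 ± 2.19 to 36.05 ± 4.45 CPM (0.72, SE 0.10, adjusted p = 0.00046 by edgeR), and Chaf1a, a subunit of the histone chaperone CAF-1, by 0.59 (SE 0.11, adjusted p = 0.00322). Rrm2, the regulated subunit of ribonucleotide reductase, rose by 0.56 (adjusted p = 0.00568 by edgeR), and Mcm7 by 0.48 (adjusted p = 0.00433). In all 4 of these genes the cKO libraries lay above the controls. None of them passed in the 5 Rps3a3-low libraries alone, where their log2 differences were 0.60 for Ung, 0.60 for Chaf1a, 0.52 for Rrm2 and 0.44 for Mcm7. The count of 12 depended on single libraries. It was 5 without cKO replicate 4 (Chaf1a, Mcm7, Rrm2, Tk1 and Ung), 7 without cKO replicate 2, 7 without control replicate 3, 6 without control replicate 5 and 0 in the Rps3a3-low libraries alone. It was 17 without cKO replicate 1, 14 without control replicate 1, 14 with DESeq2 and 15 with the library set as a term. The list's median stayed between 0.34 and 0.51 over all alternatives. Mcm6 (0.21) and Mcm2 (0.34), further helicase subunits, did not pass. Of 5 genes of later phases, the A, B and F cyclins and Cdk1, 2 rose, Ccnf, cyclin F, a subunit of a ubiquitin ligase, by 0.51 (adjusted p = 0.0424 by edgeR) and Cdk1, the kinase of mitotic entry, by 0.40 (adjusted p = 0.048), both with overlapping groups. They passed in 8 and 7 of the 18 alternatives, and neither passed when any 1 of the 5 controls or cKO replicate 2 or 4 was left out. The A and B cyclins Ccna2 (0.31), Ccnb1 (0.39) and Ccnb2 (0.28) did not pass with all libraries. The count was 4 of 5 without cKO replicate 1, where Ccnb1 and Ccnb2 passed as well, and 4 with the library set as a term, where Ccna2 and Ccnb1 did.

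Of 6 tested CDK inhibitors, which bind and block the kinases, 1 rose and 1 fell, with a median of 0.26. With 8.25% of all genes higher and 8.03% lower, 1 gene each way among 6 is near the background, but without cKO replicate 1 it was 3 higher and 1 lower. Cdkn1a, which encodes p21 and is induced by p53, was at 35.45 to 53.9 CPM in controls and at 66.35 to 74.35 CPM in cKO. The groups did not overlap, and Cdkn1a rose by 0.60 in log2 units (SE 0.10, adjusted p = 0.00176 by edgeR), within 0.52 to 0.66 over the alternatives. Cdkn1b, which encodes p27, an inhibitor of cyclin E with Cdk2, fell from 89.05 ± 5.45 to 74.05 ± 5.89 CPM (-0.27, SE 0.07, adjusted p = 0.0253 by edgeR), but the groups overlapped and it did not pass in 8 of the 18 alternatives, 6 of which each left out 1 library (control replicates 2 to 5 and cKO replicates 2 and 3). Cdkn2c (0.26) and Cdkn2d (0.27), inhibitors of Cdk4 and Cdk6, did not pass with all libraries and both passed without cKO replicate 1, and Cdkn2a was too low to be tested.

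Of 8 genes of cyclin and inhibitor turnover, 1 rose and 2 fell, with a median of -0.16, where 8.25% of all genes were higher and 8.03% lower. The 1 rise among 8 is near the background. Fbxw7 encodes the substrate receptor of the ubiquitin ligase that marks cyclin E for degradation. It was at 82.4 to 101.0 CPM in controls and at 35.8 to 53.2 CPM in cKO, and the groups were far apart. The mean fell from 89.8 ± 6.83 CPM in 5 controls to 43.9 ± 7.87 CPM in 4 cKO libraries, by 1.03 in log2 units (SE 0.11, adjusted p = 7.59e-05 by edgeR), and it passed in all 18 alternatives at -1.14 to -0.94. Cks1b, a cofactor in the degradation of p27, rose by 0.48 (SE 0.11, adjusted p = 0.0136 by edgeR). Ambra1, the receptor of a ligase that degrades D cyclins, fell by 0.22 (SE 0.06, adjusted p = 0.0324 by edgeR), with all cKO libraries below the controls, though it passed in only 9 of the 18 alternatives and not without control replicates 1, 2 or 5 or cKO replicates 3 or 4. Cul1 (-0.11) and Rbx1 (-0.20, adjusted p = 0.0519), the core of the Fbxw7 ligase, did not pass in edgeR with all libraries. Rbx1 had all cKO libraries below the controls and passed with DESeq2, with RLE scaling and without cKO replicate 1.

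The remaining 5 lists are given beside the 16.3% of all tested genes that passed. Of the 3 pocket proteins 0 passed in edgeR, 2 were at an unadjusted p under 0.05 and 1, Rbl1, passed with DESeq2, with a filter at a mean of 1 CPM, with the library set as a term and without cKO replicate 1. Rb1, the retinoblastoma gene, was at -0.24 (adjusted p = 0.167 by edgeR) and Rbl2 at 0.04. Of 9 other E2F and DP factors 1 rose, E2f8, an atypical repressor E2F, by 0.57 (SE 0.14, adjusted p = 0.0144 by edgeR), and the median was 0.01. Of the activating factors, E2f2 passed with DESeq2, E2f1 without control replicate 1, and both without cKO replicate 1. E2f6 (-0.11) and Tfdp2 (-0.10) did not pass. Of 7 CDK-activating and CDK-modifying enzymes 0 passed in edgeR with all libraries or in DESeq2 and 1 had an unadjusted p under 0.05, with Cdk7 at -0.04 and its cyclin Ccnh at -0.17. Without cKO replicate 1 Cdc25b and Cdc25c passed, Cdc25c also with the library set as a term, and without control replicate 1 Pkmyt1 passed. Of 12 transcriptional CDKs and their cyclins 2 fell, Ccnt2 by 0.34 (adjusted p = 0.00731 by edgeR) and Ccnl2 by 0.29 (adjusted p = 0.0218), while Cdk11b (-0.03) and Ccnl1 (-0.21) did not pass, and the median was -0.10. Ccnl2 did not pass without control replicates 3 or 4 or cKO replicates 2 or 4. Of 9 other cyclins and CDKs 1 fell, Cdk17, by 0.43 (adjusted p = 0.0112 by edgeR), with Ccng1 at 0.10, Cdk16 at -0.17 and a median of -0.13. Cdk16 and Ccni also passed with DESeq2, Cdk16 with the library set as a term, and Ccni with no filter and without control replicate 1 or cKO replicate 1. Of the genes named here from the 9 lists as past the threshold, Fbxw7 was the one that also passed in the 5 Rps3a3-low libraries alone. The log2 differences of the others kept their sign in that set, among them Cdkn1a at 0.65, Cks1b at 0.46, E2f8 at 0.51, Cdk17 at -0.36 (-0.43 with all libraries) and Ccnt2 at -0.21 (-0.34 with all libraries).

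**Figure D5:**
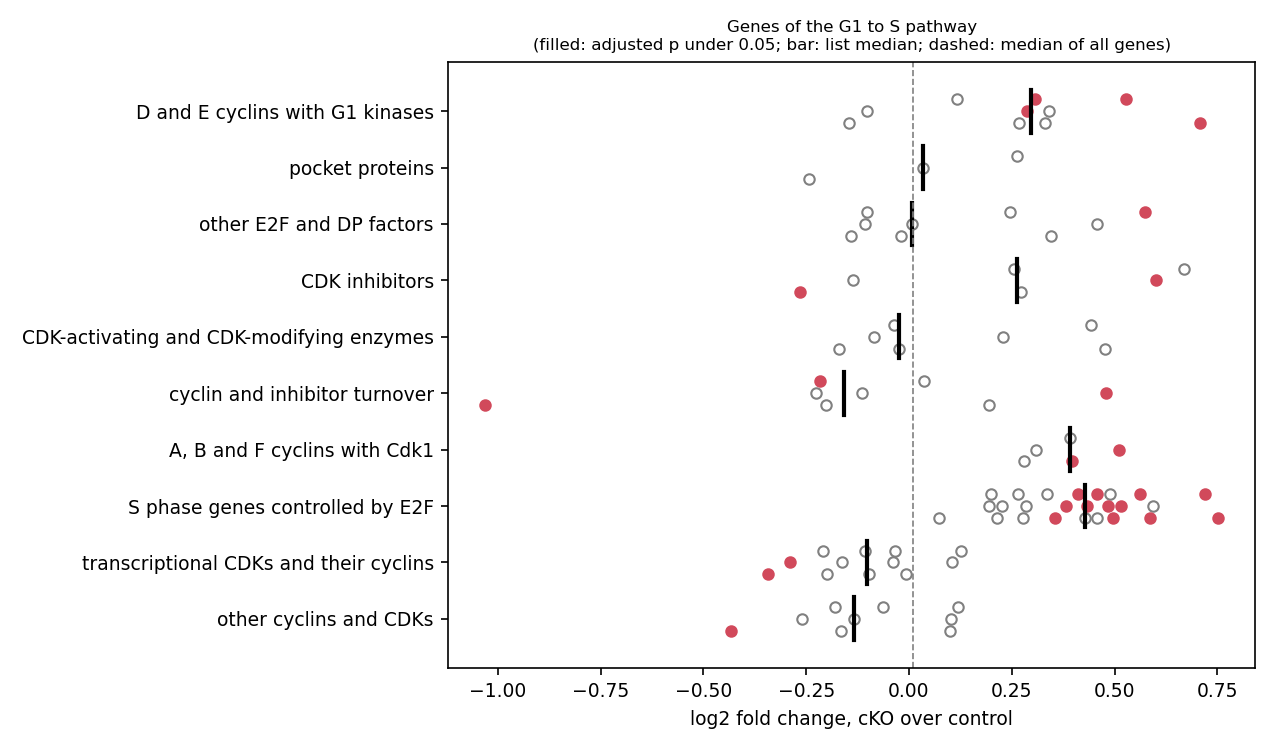
Log2 fold change of cKO over control for each gene of the 10 cyclin and kinase genes and of 9 further lists, 1 point per tested gene, filled where the adjusted p is under 0.05 by edgeR. Bars are list medians, from -0.16 for turnover genes to 0.43 for S phase genes controlled by E2F, and the dashed line is the median of all genes at 0.01.

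Other genes that overlap on the opposite strand limit some levels. LTO1 shares 1100 exon bases with Ccnd1, Bysl 361 with Ccnd3 and Pmel 34 with Cdk2. For LTO1 the log2 fold change was -0.20 and for Bysl 0.21, and neither passed in edgeR. The pseudogene Ccnd3-ps had a mean of 4.89 counts per library.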

How the data were processed

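Total RNA of P7 ventricles was extracted with Trizol, and per the labels libraries were made with a stranded mRNA kit. The study's methods state single-end reads of 75 bases mapped to mm10, and the submitters' processing notes list STAR 2.4.2a and HTSeq 0.6.1. The authors deposited raw counts per gene in 1 table, with no normalization and 0 other sample columns. Which annotation was used, and whether reads were counted by strand, is not given in the sources used here. The methods name fewer controls than a legend, and all 5 labelled controls were used. Nothing in the labels says how animals map to libraries, so p-values measure the spread between libraries.

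Of 38293 identifiers 36345, with 99.82% of the counts, were found in GENCODE M21 on GRCm38 and given symbols. Genes were kept by filterByExpr (minimum count 10), scaled by TMM and tested in edgeR 4.0.16 (R 4.3.3) by its quasi-likelihood test, genotype being the only term. P-values were two-sided and adjusted over all 15318 genes at 0.05. A fold threshold of 1.5 was applied where stated. SE were computed from the F statistic. Ratios of counts (pseudocount 0.5) were compared by exact permutation over 126 splits. Genes most alike were sought among those of at least 5 CPM. Alternatives were DESeq2 1.42.0, other scalings and filters, blocking by replicate number, Xist level or library set as a term, the Rps3a3-low libraries alone and leaving out each library. The code was tested on simulated data. The 10 genes and the lists were chosen with earlier results of these data known. Named were all 10 genes, up to 4 passing genes of each pathway list by smallest p, up to 2 further genes by level, and the 3 genes most like each of the 2 members with the smallest p. Protein sequences were not used here.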

Additional observations from a re-analysis of the deposited data

Results flagged for a closer look

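In 32 tests of whether 1 library stood apart from its group, 2 results did, where chance gives about 1 in 20. Ccne1 in control replicate 2 was at 5.21 CPM, below the next control at 7.63 CPM, a gap of 0.815 of the group's range. Without that library the log2 fold change of Ccne1 was 0.61 (adjusted p = 0.0107 by edgeR). The log2 ratio of Ccnd2 to Ccnd3 in cKO replicate 2 was 1.35, below the next cKO library at 1.89, a gap of 0.839 of the range.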

How the results depend on the processing

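Counts of genes past the threshold ran from 849 to 3160 over the 18 alternatives, against 2493 in the reported fit, and from 1903 to 2621 when 1 library was left out. In the 5 Rps3a3-low libraries alone, with fewer libraries, 849 genes and 2 of the 10 cyclin and kinase genes passed (Ccnd2 and Cdk6). Leaving out 1 library, 3 to 6 of the 10 passed. With the replicate number as a block 1730 genes and 4 of the 10 passed, and 5 instead of 12 of the S phase genes. Same-numbered libraries correlated at 0.011 to 0.232 in their deviations from group means, so the numbers were not taken to pair the libraries. Over the 18 alternatives Ccne2 turned its direction, to -0.05 without cKO replicate 4, and ran from -0.05 to 0.20 when 1 library was left out. Within the Rps3a3-high set alone, Cdk6 (-0.07) and Cdc25a (0.13) had the opposite sign to that with all libraries.

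The Ccne1 to Ccne2 and Cdk4 to Cdk2 ratios kept their direction, at 0.60 and 0.45 with labels permuted within the library sets (adjusted p = 0.075, exact permutation) and at 0.55 to 0.66 and 0.41 to 0.49 with 1 library left out (adjusted p = 0.0536 to 0.0857 by exact permutation, where both ratios were at the smallest raw p, 0.0179 or 0.0286). The Ccnd1 to Ccnd3 ratio ran from -0.05 to 0.10 and the Cdk4 to Cdk6 ratio from -0.07 to 0.12 when 1 library was left out. Depth limits Ccne1 and Cdk6 most, with at least 180 and 217 counts per library.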

Other observations

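The other S phase genes past the threshold, named after their values were seen, were Tk1, thymidine kinase of nucleotide salvage, at a log2 fold change of 0.75 (adjusted p = 0.00923 by edgeR), Uhrf1 at 0.52, Cdc45 at 0.50, Mcm10 at 0.46, Mcm3 at 0.43, Mcm5 at 0.41, Pola1 at 0.38 and Rrm1 at 0.36. Except for Tk1, each of these 8 lost the threshold without cKO replicate 4. Of the 18 alternatives Tk1 passed in 16, Rrm1 in 14, Cdc45 in 13, Mcm3 and Mcm10 in 12, Uhrf1 in 11 and Mcm5 and Pola1 in 10. The groups did not overlap for Mcm10, Rrm1 and Pola1 and overlapped for the other 5.

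Among markers of further cell types, Myl7, an atrial myosin light chain, averaged 44.85 ± 14.35 CPM in 5 controls and 102.8 ± 14.07 CPM in 4 cKO libraries (mean ± SD), a rise of 1.20 in log2 units (adjusted p = 0.00493 by edgeR), while Myl4 at 0.17 and Sln at -1.25 did not pass. Wt1, a marker of the epicardium, fell by 0.40 (adjusted p = 0.0128 by edgeR), and Upk3b and Msln did not pass. Of 5 mural cell, 5 macrophage and 4 erythroid markers 0 passed in edgeR, with 1, 0 and 2 at an unadjusted p under 0.05 and 0, 0 and 1 past the threshold with DESeq2. Log2 fold changes were above 0 for 3 mural, all 5 macrophage (median 0.455) and all 4 erythroid markers (median 0.568). Of 4 skeletal muscle markers 2 were tested and 0 passed, both at an unadjusted p under 0.05 in edgeR. The 4 summed to only 1.64 to 2.14 CPM in controls and 2.84 to 3.17 CPM in cKO.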
